A study of Mus musculus with 29 samples.

Results

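The genes of V(D)J recombination were followed through the RNA-seq libraries of sorted mouse pro-B cells. The 10 members are the recombinase genes Rag1 and Rag2, the terminal transferase gene Dntt, and the genes of classical non-homologous end joining: Xrcc6 and Xrcc5, which code for Ku70 and Ku80, Prkdc (DNA-PKcs), Dclre1c (Artemis), Lig4, Xrcc4 and Nhej1 (XLF). They were chosen for these roles and matched by symbol. All 10 were found among the 24732 entries of the mm9 tables and among the 25588 entries of the mm10 tables.

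V(D)J recombination assembles the variable regions of immunoglobulin and T cell receptor genes from separate gene segments. The RAG1-RAG2 complex cuts at recombination signal sequences and leaves hairpin-sealed coding ends, which Artemis opens once DNA-PKcs has been recruited by the Ku heterodimer. TdT, the product of Dntt, adds nucleotides to these ends without a template, and DNA ligase IV joins them together with XRCC4 and XLF. In pro-B cells this machinery rearranges the immunoglobulin heavy-chain locus. Pax5 is the transcription factor that commits progenitors to the B cell lineage.

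All mice were of the C57BL/6 strain, and the cells were sorted by flow cytometry from bone marrow without culture. The wild-type (Pax5+/+) group had 3 libraries and the Pax5-/- group had 2. A further group of 3 libraries came from pooled pro-B cells of mice that the labels describe as Pax5+/+ with Meox2-cre and that were 3 weeks old, whereas the sample list of the study gives these mice a heterozygous Pax5 genotype. In Meox2-cre mice, Cre recombinase is expressed from the Meox2 locus in the early embryo, which brings it to most tissues. The age of the other mice was not given in the sources used here. The study sorted B220+ Kit+ cells in both cases, but with further surface markers that differed between pro-B cells (CD2- IgM- IgD-, among others) and Pax5-deficient progenitors (Ly6D+, among others), so that the gate changed with the genotype and the effects of both cannot be told apart. The labels do not say that the libraries of a group came from separate animals, and p-values measure only the spread between these samples.

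Expression is given in TPM, the transcripts of a gene relative to all transcripts of its library after correction for gene length. The TPM of every library add up to the same total, and the sequencing depth in reads is therefore unknown. Relative depth, read from the steps between low values, ranged from 0.855 to 1.54 times that of wild-type replicate 1 in the mm9 tables and from 1 to 1.03 in the Meox2-cre tables. Pax5, the targeted gene, had 342, 386 and 391 TPM in the wild-type and 43.0 and 39.1 TPM in the Pax5-/- libraries. Its log2 fold change was -3.17 ± 0.11 (SE; limma, adjusted p = 3.1e-06), and some Pax5 transcript was thus still counted in the Pax5-/- libraries.

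The sequences upstream of the recombinase, TdT and Ku genes are shown because they let the partner genes compared below be set side by side. Each is the 250 bases before an annotated transcription start in RefSeq on GRCm38.p6, written 5′ to 3′ on the strand of the gene, with every CG dinucleotide in capitals. Rag1 lies on the minus strand (chr2:101649533-101649782) and Rag2 on the plus strand (chr2:101624462-101624711) of the same locus. The windows of Dntt (chr19:41029025-41029274), Xrcc6 (chr15:82016119-82016368) and Xrcc5 (chr1:72307171-72307420) are on the plus strand.
Rag1: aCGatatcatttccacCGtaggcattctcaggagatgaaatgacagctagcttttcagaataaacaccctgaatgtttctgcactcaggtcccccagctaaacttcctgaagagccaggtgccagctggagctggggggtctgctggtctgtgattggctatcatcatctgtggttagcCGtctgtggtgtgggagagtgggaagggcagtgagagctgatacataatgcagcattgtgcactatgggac
Rag2: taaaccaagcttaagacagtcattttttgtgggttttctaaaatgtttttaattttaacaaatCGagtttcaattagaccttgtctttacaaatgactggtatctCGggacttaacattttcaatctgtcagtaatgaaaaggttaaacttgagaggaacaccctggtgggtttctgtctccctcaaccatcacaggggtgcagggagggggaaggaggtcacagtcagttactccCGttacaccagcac
Dntt: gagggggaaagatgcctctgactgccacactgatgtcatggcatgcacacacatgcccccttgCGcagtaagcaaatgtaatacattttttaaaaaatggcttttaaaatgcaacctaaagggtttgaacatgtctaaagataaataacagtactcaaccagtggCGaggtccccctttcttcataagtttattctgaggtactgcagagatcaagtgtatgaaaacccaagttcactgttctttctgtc
Xrcc6: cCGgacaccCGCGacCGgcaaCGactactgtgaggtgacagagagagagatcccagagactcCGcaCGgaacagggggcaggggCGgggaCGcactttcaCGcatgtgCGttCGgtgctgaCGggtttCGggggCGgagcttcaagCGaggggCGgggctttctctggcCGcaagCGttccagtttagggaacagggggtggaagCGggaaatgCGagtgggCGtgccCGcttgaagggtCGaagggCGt
Xrcc5: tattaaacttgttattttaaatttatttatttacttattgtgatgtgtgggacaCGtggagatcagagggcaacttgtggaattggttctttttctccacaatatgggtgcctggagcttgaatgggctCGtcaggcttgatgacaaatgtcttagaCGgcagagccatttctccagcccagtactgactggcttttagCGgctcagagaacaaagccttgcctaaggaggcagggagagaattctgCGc

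The upstream windows differed in their CpG content. Rag1 and Rag2 each had 3 CG dinucleotides, Dntt had 2 and Xrcc5 had 5, whereas Xrcc6 had 25. Among 32851 windows of this kind the median was 6, with quartiles of 2 and 16, which places Rag1, Rag2, Dntt and Xrcc5 below the median and Xrcc6 above the upper quartile. Of the other members, Lig4 had 27 and 28 at its 2 annotated starts, Xrcc4 had 26, Nhej1 had 9 and Dclre1c had 8. Prkdc was not matched. The GC box GGGCGG, searched on both strands, was found 3 times in the Xrcc6 window, 3 times in that of Xrcc4, 2 times each in those of Nhej1 and of the second Lig4 start and once in that of Dclre1c. It was absent from the windows of Rag1, Rag2, Dntt, Xrcc5 and the first Lig4 start, and 32.7% of all windows held it. The E-box CANNTG, which reads the same on both strands, occurred 3 times upstream of Rag1, 3 times upstream of Dntt, 2 times upstream of Xrcc5 and of Dclre1c, and once upstream of Rag2, Xrcc6, Nhej1 and either Lig4 start, while Xrcc4 had none and 66.2% of all windows held at least 1. TATAAA was found in no member's window and in 12.4% of all windows. These matches describe the letters of the windows and not sites of binding.

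**Figure D1:**
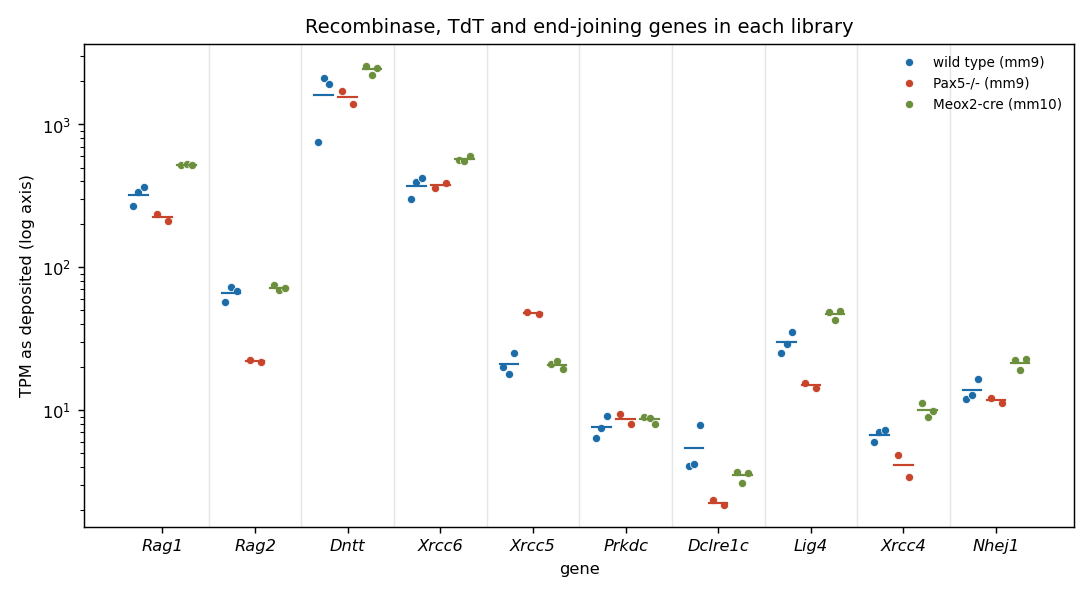
TPM of the 10 genes (vertical log axis) in each library, grouped by gene. Points are libraries and horizontal bars are group means for wild type (n = 3), Pax5-/- (n = 2) and Meox2-cre (n = 3). Rag2 and Lig4 sit lower and Xrcc5 sits higher in both Pax5-/- libraries than in any wild-type library, and wild-type replicate 1 stands apart for Dntt at 760 TPM.

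In wild-type pro-B cells the 10 genes covered more than 2 orders of magnitude. Dntt was the most abundant at 1605 ± 739 TPM (SD, n = 3), followed by Xrcc6 at 374 ± 64.6 TPM and Rag1 at 323 ± 49.9 TPM, whose library ranges overlapped. Rag2 came next at 66.4 ± 8.14 TPM, then Lig4 at 29.8 ± 5.16 TPM, Xrcc5 at 21.0 ± 3.69 TPM and Nhej1 at 13.8 ± 2.35 TPM, with no overlap between these neighbours. Prkdc, Xrcc4 and Dclre1c formed the low end at 7.68 ± 1.38, 6.75 ± 0.683 and 5.40 ± 2.18 TPM, and the ranges of these 3 genes overlapped. Dntt alone made up 52.1 to 70.6% of the summed TPM of the members in the wild-type libraries. Ranked among all entries of a library, Dntt stood between positions 38 and 176, and Rag1 between 470 and 700, whereas Rag2 was found between 2781 and 3274. The order changed in the Pax5-/- libraries, where Xrcc5 stood above Rag2 and Lig4, and where no 2 neighbouring genes overlapped.

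Between Pax5-/- and wild-type pro-B cells, Rag2, Rag1, Lig4 and Dclre1c were lower and Xrcc5 was higher, and the other 5 genes did not pass the test. The test was limma on log2(TPM + 0.5) over the 12066 genes whose mean passed 1 TPM in either genotype, with Benjamini-Hochberg adjustment over all of them and a threshold of 0.05. Thus 1 of 10 members was higher and 4 were lower, where 15.6% of all genes tested were higher and 21.5% were lower. Counted by libraries, 1 member lay above and 5 members lay below all wild-type libraries in both Pax5-/- libraries, against 26.1% and 37.4% of all genes. The study's thresholds for these libraries, which also ask for a 3-fold change and for 5 TPM in either genotype, called 0 members in either direction, and 3.35% and 3.89% of all genes that could be called. At an unadjusted p below 0.05, limma found 1 member to be higher and 5 to be lower, the additional one being Xrcc4, against 19.3% and 28% of all genes. With a 2-fold in place of the 3-fold threshold, 1 member was called as higher (Xrcc5) and 2 as lower (Rag2 and Dclre1c), and 6.45% and 7.71% of all genes that could be called. The median log2 fold change was -0.37 for the members and -0.12 for all genes tested, and rescaling by median ratios moved the latter to -0.0031. In such bulk libraries, fewer expressing cells and less RNA per cell cannot be told apart.

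**Figure D2:**
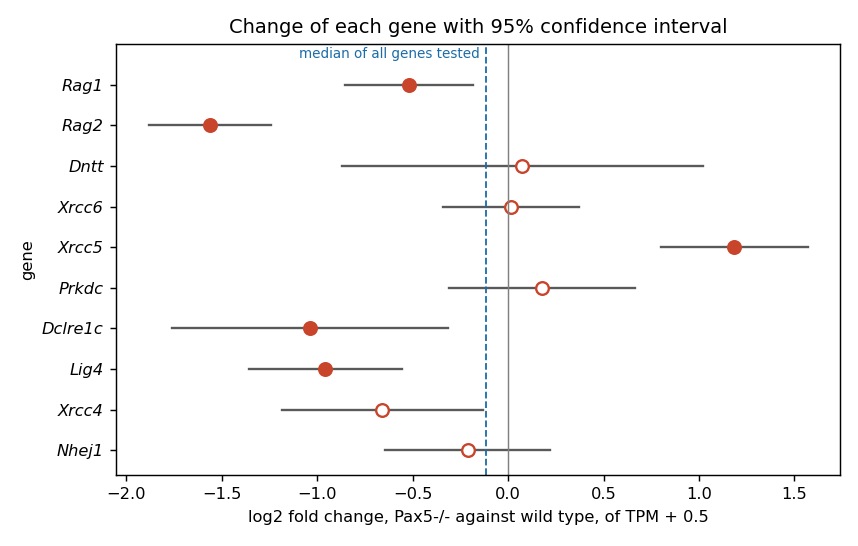
Log2 fold change of TPM + 0.5 (horizontal axis) between Pax5-/- and wild-type libraries for each gene, with the 95% confidence interval from limma as a line. Filled points have an adjusted p below 0.05, and the dashed line marks the median of all genes tested at -0.12. Rag2 lies furthest to the left at -1.56 and Xrcc5 furthest to the right at 1.19.

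Rag1 and Rag2 encode the catalytic and the accessory subunit of the recombinase. Both genes lie on chromosome 2 in mm9, Rag1 at 101478439 to 101489658 on the minus strand and Rag2 at 101464875 to 101472685 on the plus strand, with 5753 bases between their ends. Rag2 had 57.4, 73.2 and 68.8 TPM in the wild-type libraries and 22.5 and 21.7 TPM in the Pax5-/- libraries. Every wild-type value was thus far above both Pax5-/- values, and the means of 66.4 ± 8.14 (SD, n = 3) and 22.1 ± 0.605 (SD, n = 2) differed 3.01-fold. The log2 fold change of Rag2 was -1.56 ± 0.14 (SE; 95% confidence interval -1.88 to -1.24; limma, adjusted p = 0.00018), which fell just short of the 3-fold threshold on this scale.

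Rag1 changed less than Rag2. It had 267, 338 and 363 TPM in the wild-type and 236 and 211 TPM in the Pax5-/- libraries, so that the groups did not overlap but came close at wild-type replicate 1. The means were 323 ± 49.9 (SD, n = 3) and 223 ± 17.6 (SD, n = 2), and the log2 fold change was -0.52 ± 0.14 (SE; 95% confidence interval -0.85 to -0.18; limma, adjusted p = 0.026). This call of limma was lost in 7 of 14 alternative analyses, among them quantile normalization (adjusted p = 0.053) and the omission of wild-type replicate 2 (0.074), wild-type replicate 3 (0.057), or Pax5-/- replicate 1 (0.11) or 2 (0.22). The call for Rag2 held in all 14, with adjusted p-values from 7.8e-05 to 0.013.

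The ratio of Rag1 to Rag2 within a library does not depend on the scaling between libraries. It was 4.65, 4.62 and 5.28 in the wild-type and 10.5 and 9.74 in the Pax5-/- libraries. Relative to Rag2, Rag1 transcript was therefore 2.09-fold more abundant in Pax5-/- cells by geometric means, and no library of 1 group reached the range of the other. The exact permutation test gave p = 0.1 (two-sided), the smallest value that 10 splits of 3 and 2 libraries allow, so that this design cannot reach 0.05. Of 4 ratios of this kind compared, the adjusted p was 0.13 for this one by the exact permutation test.

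The annotation of mm9 places the gene B230118H07Rik across the whole of both recombinase genes, on the strand of Rag1 and opposite to Rag2. Its exons shared 80 bases with the 6608 exonic bases of Rag1 and 208 with the 3423 of Rag2. The read counting of the authors is described with default settings, which do not use the strand, so that reads in any shared bases would not be assigned by strand. It used modified refGene models, however, in which the entries of Rag1, Rag2 and B230118H07Rik are not marked as overlapping another gene. Whether these counted models share bases is therefore not known. B230118H07Rik itself had 3.52, 2.68 and 3.99 TPM in the wild-type and 4.77 and 4.73 TPM in the Pax5-/- libraries, with a log2 fold change of 0.44 ± 0.23 (SE; limma, adjusted p = 0.17). Its level was thus far below that of Rag1 and Rag2 in every library. Traf6, the next gene beyond Rag1, codes for a signalling adaptor and was lower in the Pax5-/- libraries (log2 fold change -0.74 ± 0.12, SE; limma, adjusted p = 0.0033).

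Dntt showed no difference that stood out from the spread of the wild-type libraries. The gene lies on chromosome 19 at 41103765 to 41134013 and has 12 exons in its longest coding transcript. It had 760, 2133 and 1921 TPM in the wild-type and 1712 and 1382 TPM in the Pax5-/- libraries. Wild-type replicate 1 was the lowest of all and the other wild-type libraries were the highest, so that the Pax5-/- values lay between them. The log2 fold change of Dntt was 0.07 ± 0.40 (SE; 95% confidence interval -0.87 to 1.02; limma, adjusted p = 0.90), an interval that spans large changes in both directions. Without wild-type replicate 1 the sign turned and the value was -0.40 (limma, adjusted p = 0.069), and it also turned without Pax5-/- replicate 1 (-0.08), so that these data give no direction for Dntt.

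The spread of Dntt in the wild-type group was unusual for these libraries. Its SD on the log2 scale was 0.82, compared with a median of 0.20 over the 12066 genes tested. The summed myeloid markers of the wild-type libraries ran from 51.1 to 266 TPM and the erythroid markers from 73.5 to 186 TPM, and both sums were lowest in replicate 1. Their part in the Dntt values was not tested. Replicate 1 was the lowest wild-type library for 9 of the 10 members, all but Xrcc5, and for 54% of the 12066 genes tested. Without this library, limma gave 1 higher and 5 lower members at an adjusted p below 0.05, with Xrcc4 added to the lower ones. Over all genes, 1842 were then higher and 3233 lower, against 1885 and 2596 with all libraries. The median log2 fold change of all genes moved from -0.12 to -0.17, so that the shift was not particular to the members. The ratio of Dntt to Rag2 was 13.2, 29.2 and 27.9 in the wild-type and 76.0 and 63.8 in the Pax5-/- libraries. All Pax5-/- ratios thus exceeded all wild-type ratios (exact permutation test, two-sided p = 0.1, the smallest possible; adjusted p = 0.13), with a 3.15-fold difference of the geometric means.

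The Ku heterodimer binds broken DNA ends as the first step of classical end joining, and its subunit genes behaved differently. Xrcc5, which codes for Ku80, had 20.1, 17.8 and 25.04 TPM in the wild-type and 48.7 and 47.0 TPM in the Pax5-/- libraries. Both Pax5-/- values were well above every wild-type value, and the mean rose 2.28-fold from 21.0 ± 3.69 (SD, n = 3) to 47.9 ± 1.19 TPM (SD, n = 2). The log2 fold change of Xrcc5 was 1.19 ± 0.16 (SE; 95% confidence interval 0.80 to 1.57; limma, adjusted p = 0.0015). This call held in all 14 alternatives, with adjusted p-values from 0.00044 to 0.041.

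Xrcc6, which codes for Ku70, had 301, 398 and 423 TPM in the wild-type and 360 and 389 TPM in the Pax5-/- libraries. The groups overlapped and had the same mean of 374 TPM, with an SD of 64.6 (n = 3) and 20.7 (n = 2). Its log2 fold change was 0.02 ± 0.15 (SE; 95% confidence interval -0.34 to 0.37; limma, adjusted p = 0.95), and its sign turned without wild-type replicate 1 or without Pax5-/- replicate 2. The Xrcc6 transcript was more abundant than the Xrcc5 transcript in every library, although the proteins form a heterodimer. This excess was 15.0-, 22.3- and 16.9-fold in the wild-type and 7.38- and 8.27-fold in the Pax5-/- libraries. It was thus 2.28-fold smaller in the Pax5-/- libraries by geometric means (exact permutation test, two-sided p = 0.1, the smallest possible; adjusted p = 0.13).

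In mm9, Xrcc5 lies on chromosome 1 at 72353995 to 72441526 with 21 exons and Xrcc6 on chromosome 15 at 81818265 to 81870515 with 13 exons in the longest coding transcript. The annotated span of Xrcc6 includes all 41340 bases of Pppde2 on the opposite strand, of which 282 exonic bases were shared. Xrcc5 overlapped none of the neighbouring genes examined.

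**Figure D3:**
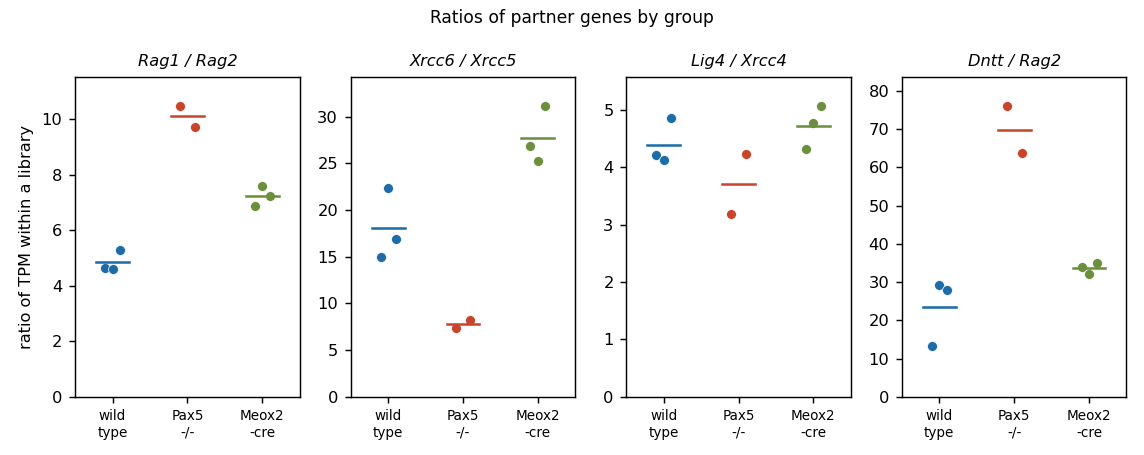
Ratio of TPM within each library (vertical axis, from 0) for 4 pairs of genes. Points are libraries and bars are group means for wild type (n = 3), Pax5-/- (n = 2) and Meox2-cre (n = 3). Rag1/Rag2 and Dntt/Rag2 are higher and Xrcc6/Xrcc5 is lower in both Pax5-/- libraries than in any wild-type library, whereas Lig4/Xrcc4 overlaps.

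The next genes act on the ends that Ku has bound. Prkdc, the gene of the kinase DNA-PKcs, had 6.43, 7.45 and 9.16 TPM in the wild-type and 9.38 and 8.0 TPM in the Pax5-/- libraries. The groups overlapped, and the log2 fold change was 0.18 ± 0.21 (SE; limma, adjusted p = 0.53). Prkdc lies on chromosome 16 at 15637959 to 15842332, and 465 bases separate it from Mcm4, a gene of the replicative helicase, which is read from the opposite strand. Mcm4 had a log2 fold change of 0.03 ± 0.12 (SE; limma, adjusted p = 0.84) and thus also did not pass the test.

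Dclre1c codes for the nuclease Artemis, which opens the hairpins. It had 4.07, 4.21 and 7.91 TPM in the wild-type and 2.33 and 2.18 TPM in the Pax5-/- libraries. Every wild-type value was higher than both Pax5-/- values, but wild-type replicate 3 stood well above the other wild-type libraries. The log2 fold change was -1.04 ± 0.31 (SE; limma, adjusted p = 0.034), and the adjusted p rose to 0.052 without wild-type replicate 2 and to 0.17 or 0.22 without either Pax5-/- library. Its entry is marked in the mm9 tables as overlapping another gene. In the mm9 annotation Dclre1c (chromosome 2, 3341403 to 3381402) shares 8316 bases with Suv39h2 on the opposite strand, of which 357 are exonic in both.

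The last step is ligation. Lig4 codes for DNA ligase IV and had 25.2, 28.8 and 35.4 TPM in the wild-type and 15.5 and 14.4 TPM in the Pax5-/- libraries. The lowest wild-type library was clearly above both Pax5-/- libraries. The log2 fold change of Lig4 was -0.96 ± 0.17 (SE; 95% confidence interval -1.36 to -0.56; limma, adjusted p = 0.0046), and the call was lost without Pax5-/- replicate 1 (adjusted p = 0.056) or 2 (0.081). Lig4 lies on chromosome 8 at 9970020 to 9977686, 20 bases from the start of Abhd13 on the other strand. Abhd13, a hydrolase gene, was lower as well, with a log2 fold change of -0.59 ± 0.18 (SE; limma, adjusted p = 0.039).

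Xrcc4, the gene of the scaffold that stabilizes DNA ligase IV, had 5.97, 6.98 and 7.28 TPM in the wild-type and 4.88 and 3.39 TPM in the Pax5-/- libraries. Its groups did not overlap, yet the log2 fold change of -0.66 ± 0.22 (SE; limma, adjusted p = 0.054) missed the threshold. It passed in 5 of 14 alternatives, with adjusted p-values of 0.042 without the intensity trend, 0.049 with robust shrinkage, 0.049 with median-ratio rescaling, 0.044 with quantile normalization and 0.039 without wild-type replicate 1. The ratio of Lig4 to Xrcc4 was 4.21, 4.13 and 4.86 in the wild-type and 3.18 and 4.24 in the Pax5-/- libraries, and these ranges overlapped (exact permutation test, two-sided p = 0.3). Xrcc4 lies on chromosome 13 at 89913632 to 90229213 and shares 112 exonic bases with Tmem167.

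Nhej1 codes for XLF, which supports ligation beside XRCC4. It had 12.0, 12.8 and 16.4 TPM in the wild-type and 12.2 and 11.3 TPM in the Pax5-/- libraries. The groups overlapped, and the log2 fold change of -0.21 ± 0.18 (SE; limma, adjusted p = 0.40) did not pass the test. Nhej1 lies on chromosome 1 at 75013713 to 75093213 and has 5 exons in its longest coding transcript.

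In the Meox2-cre pro-B cells the members were measured with another genome build and other software, and their levels are set beside the wild-type values without a test. Dntt had 2570, 2219 and 2506 TPM, again the highest of the 10 genes, with an SD of 187 around 2432 (n = 3). Rag1 had 521, 527 and 517 TPM and Rag2 had 75.7, 69.2 and 71.5 TPM, which gave ratios of Rag1 to Rag2 of 6.88, 7.61 and 7.23. These ratios lay between those of the wild-type and of the Pax5-/- libraries.

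The Ku genes had 565, 558 and 603 TPM for Xrcc6 and 21.0, 22.1 and 19.4 TPM for Xrcc5 in the Meox2-cre libraries. The latter lay within the wild-type range, and the excess of Xrcc6 over Xrcc5 was 26.9-, 25.3- and 31.1-fold. Prkdc had 8.64 ± 0.511 TPM (SD, n = 3) and Dclre1c had 3.49 ± 0.341 TPM, below every wild-type library. The entry of Dclre1c is marked as overlapping another gene in mm9 but not in mm10, so its gene model may differ between the builds. The ligation genes reached 47.1 ± 3.73 TPM for Lig4 and 21.5 ± 1.92 TPM for Nhej1 (SD, n = 3 each), and Xrcc4 had 11.2, 8.96 and 9.81 TPM, all above every wild-type library.

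The mean of 6 members, namely Rag1, Dntt, Xrcc6, Lig4, Xrcc4 and Nhej1, was 1.48 to 1.62 times the wild-type mean in the Meox2-cre libraries. The ratio was 1.09 for Rag2, 0.99 for Xrcc5, 1.12 for Prkdc and 0.65 for Dclre1c. Over the 8805 genes above 5 TPM in both groups the median of the log2 difference was 0.18, with quartiles of -0.022 and 0.35, so that most genes were higher in the Meox2-cre libraries by some margin. The order of the levels was Dntt, Xrcc6, Rag1, Rag2 and Lig4, followed by Nhej1 and Xrcc5, whose ranges overlapped, then Xrcc4 and Prkdc, which overlapped too, and last Dclre1c. The spread was small in this group, with a median SD of 0.091 on the log2 scale over 11812 entries. The myeloid markers summed to 454 to 1242 TPM and the erythroid markers to 214 to 306 TPM, both above the wild-type range, and their part in the levels of the members was not tested.

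The genes closest to the recombinase and TdT genes in profile were sought among 9841 genes, by the root mean square difference of log2(TPM + 0.5) over the 5 mm9 libraries after centring each gene on its wild-type mean. Klhl20 (0.025), Papd5 (0.026) and Cdan1 (0.031) were closest to Rag1. For Rag2 these were Plekhm1 (0.035), Fam63b (0.048) and Tifa (0.052), the last with 412, 500 and 478 TPM in the wild-type and 156 and 164 TPM in the Pax5-/- libraries. The profile of Dntt had no equally close match, since the nearest genes Entpd4, Esr1 and Ypel2 differed from it by 0.16, 0.18 and 0.19. All 3 were lowest in wild-type replicate 1, as was Dntt, with 12.6 TPM for Entpd4 against 32.4 and 32.4 TPM in the other wild-type libraries. These distances are descriptions over 5 libraries.

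The paralogues of the members had no common direction, with 1 of 6 tested higher and 3 lower. Among all genes tested, 15.6% were higher and 21.5% were lower. Polm, which codes for the polymerase most closely related to TdT, had 6.02, 4.71 and 11.0 TPM in the wild-type libraries. In the Pax5-/- libraries it was listed at 0 and at 0.0841 TPM (limma, adjusted p = 0.00029), and it had 19.0 ± 1.97 TPM in the Meox2-cre libraries (SD, n = 3). Poll, the gene of the other end-joining polymerase of this family, had 42.4, 44.6 and 48.2 TPM in the wild-type and 72.2 and 71.6 TPM in the Pax5-/- libraries. Its log2 fold change was 0.67 ± 0.11 (SE; limma, adjusted p = 0.0032), opposite in sign to that of Polm, and the adjusted p reached 0.054 when 1 Pax5-/- library was left out. Polb and the ligase gene Lig1 were lower at -0.71 and -0.41 on the log2 scale, the latter in an entry marked as overlapping another gene and with the call lost in 8 of 14 alternatives. The end-processing list, which holds Polm and Poll too, had 1 of 7 genes higher and 2 lower, and its remaining call was Tdp1 at -0.56.

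**Figure D4:**
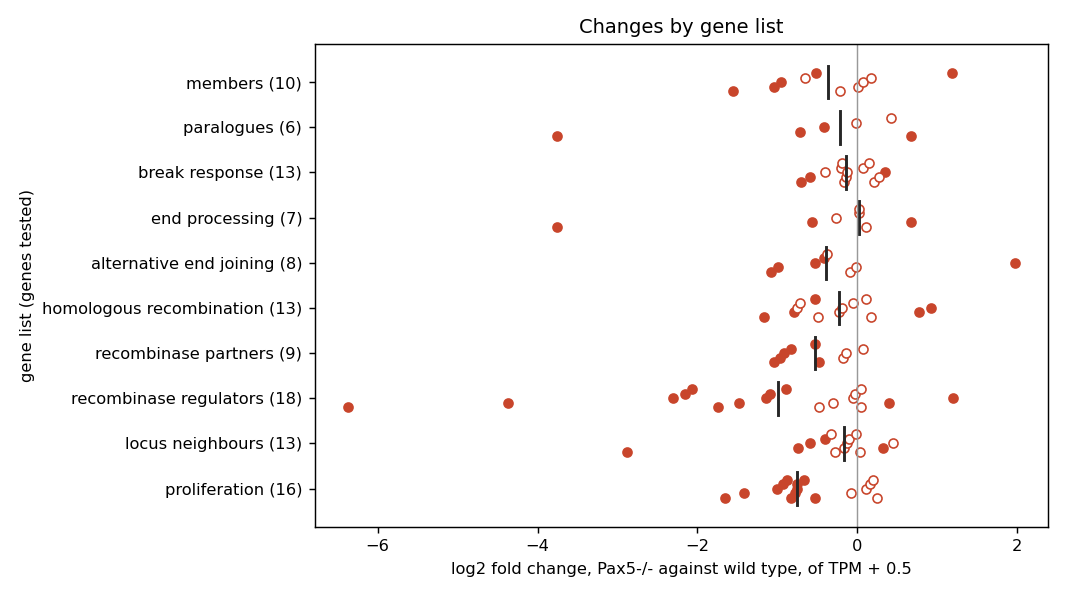
Log2 fold change of TPM + 0.5 between Pax5-/- and wild-type libraries (horizontal axis) for the genes tested in each list, with the number tested in parentheses. Filled points have an adjusted p below 0.05 and vertical bars are list medians, which range from -0.99 for the recombinase regulators to 0.02 for the end-processing genes.

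Around classical end joining, most genes of the break response did not pass the test. Of 13 genes, 1 was higher and 2 were lower, with a median log2 fold change of -0.14, near that of all genes. For the lists of this paragraph, the shares of all genes tested were 15.6% higher and 21.5% lower. H2afx, the histone variant that marks breaks, was at -0.70, the mediator Mdc1 at -0.59 and Trp53, the gene of p53, at 0.35. Among 8 genes of alternative end joining, 1 was higher and 4 were lower (median -0.39). Parp1, a sensor of strand breaks, had 633, 641 and 645 TPM in the wild-type and 2558 and 2480 TPM in the Pax5-/- libraries, with a log2 fold change of 1.98 ± 0.091 (SE; limma, adjusted p = 1.1e-05) and in an entry marked as overlapping. Xrcc1, the partner of DNA ligase III, was lower at -1.08, Polq at -0.99 and Rbbp8 at -0.52. Homologous recombination had 2 of 13 genes higher and 3 lower (median -0.22), the largest changes being -1.16 for Rad51c, 0.92 for Rad51b, -0.78 for Rad52 and 0.78 for Rad51d.

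Among the partners of the recombinase and TdT, 6 of 9 genes were lower and 0 were higher, with a median of -0.52. For this and the following lists, the shares of all genes tested were 21.5% lower and 15.6% higher, with a median of -0.12. Hmgb1 and Hmgb2, whose products bend DNA for the RAG complex, were at -1.04 and -0.96, Skp2, which directs RAG2 degradation, at -0.92 and the importin gene Kpna2 at -0.83. The mean TPM in the wild-type and Meox2-cre libraries were 509 and 63.2 for Hmgb1, 718 and 177 for Hmgb2, and 95.5 and 14.5 for Kpna2. Skp2 had 47.7 and 59.8 TPM. The levels of Hmgb1, Hmgb2 and Kpna2 may thus depend on build and software, which was not tested. The 18 transcription factor genes listed as regulators of the recombinase and Dntt loci included 10 lower and 2 higher ones (median -0.99). The most reduced were Lef1 at -6.37, Ikzf3 (Aiolos) at -4.36, Irf4 at -2.30 and Gfi1b at -2.16. In 16 proliferation genes, 11 were lower and 0 were higher (median -0.75), led by Rrm2 at -1.66 and Mki67 at -1.42. The 5 that did not pass the test were Mcm2, Mcm3, Mcm5, Mcm6 and Mcm7, at -0.07 to 0.25. The part of the proliferation genes in the changes of the members was not tested. At the loci of the members, 13 of 20 listed neighbours could be tested, of which 1 was higher and 4 were lower (median -0.16). Blnk, an adaptor gene 34739 bases from Dntt, had the largest change at -2.88 ± 0.21 (SE; limma, adjusted p = 8.3e-05), while Dntt did not pass the test, and Commd9, on the same side of Rag1 as Traf6, was at -0.41. Of 32 genes from these lists that lead them by size of change and passed the test, 11 passed in all 14 alternatives, namely Polm, Parp1, Xrcc1, Hmgb2, Lef1, Ikzf3, Irf4, Gfi1b, Blnk, Rrm2 and Ccna2. The other 21 lost their call when a Pax5-/- library was left out.

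The cell type labels were examined with marker lists, whose counts stand beside 15.6% higher and 21.5% lower among all genes tested. The pro-B markers summed to 11460 to 13774 TPM in the wild-type and 5192 to 6008 TPM in the Pax5-/- libraries, with 6 of 10 lower and 1, Ly6d, higher. Kit, Il7r and Ptprc did not pass the test. Ly6D was itself used to sort the Pax5-deficient progenitors. Both cell types were sorted by Kit and by B220, a form of the product of Ptprc. Ly6d, Kit and Ptprc are therefore no independent check of the labels. The same holds for Cd2 among the pre-B markers, since the pro-B cells were sorted as CD2-. The pre-B markers were lower in 4 and higher in 1 of 5 (203 to 299 against 18.6 to 18.8 TPM). T cell markers summed to 105 to 116 against 218 to 224 TPM, with 2 higher and 2 lower of 4 tested. Most of these sums was Lck, in an entry marked as overlapping, at 54.8 to 72.2 against 196 and 198 TPM. Cd4 was higher too, whereas Thy1 and Zap70 were lower. Cd3d, Cd3e and Cd3g stayed below 0.5 TPM in every library. Of 8 myeloid markers 2 were lower (51.1 to 266 against 64.9 to 95.8 TPM). Of 4 plasmacytoid dendritic markers 1 was higher and 1 lower (162 to 214 against 174 to 227 TPM). Of 2 NK cell markers 1 was higher and 1 lower (3.89 to 14.3 against 19.0 to 24.0 TPM). Gzmb was at 0 in all wild-type and Pax5-/- libraries. Erythroid markers were lower in 3 of 4 (73.5 to 186 against 8.0 to 59.7 TPM, with the beta-globin entry at 0). The part of these cells in the changes of the members was not tested.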

How the data were processed

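The deposited files hold TPM values, 1 table per library, which the authors calculated from the reads per gene and the gene length. For the wild-type and Pax5-/- libraries the authors aligned reads to mm9 (TopHat 1.4.1a) and counted them over refGene models that had been modified (featureCounts 1.5.0, default settings). The reads of Meox2-cre cells were aligned to mm10 with STAR 2.4.2a before counting with featureCounts 1.5.0. Conditions came from the sample labels, and replicate numbers only name libraries.

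The wild-type (n = 3) and Pax5-/- (n = 2) libraries were set against each other on the log2(TPM + 0.5) scale by limma (version 3.58.1, R 4.3.3) using lmFit and eBayes with trend. Genes whose mean passed 1 TPM in either genotype entered, with Benjamini-Hochberg adjustment over all of them. The pseudocount understates changes of low genes. Simulated data with known changes served to check the fit. The study's thresholds (adjusted p below 0.05, over 3-fold, over 5 TPM in either genotype) left immunoglobulin and T cell receptor genes out of the calls. Ratios within libraries were compared by exact permutation tests (numpy 2.4.6).

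The members and gene lists were chosen with earlier results of these data known. Besides all members and Pax5, up to 4 genes per list were named, those with the largest change among adjusted p-values below 0.05, and the 3 genes nearest in profile to Rag1, Rag2 and Dntt. B230118H07Rik and Mcm4 were named for their position. Members of the marker lists were named as defining genes or for their part in a sum. The other Mcm genes were named because they did not pass the test in their list. All these were chosen after their values were seen. Gene positions are from the mm9 annotation of GENCODE. Promoter windows from RefSeq on GRCm38.p6 were matched for 9 members. ChIP-seq samples were not analysed here. The values of 1 marker gene are not reported here.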

Additional observations from a re-analysis of the deposited data

How the results depend on the processing

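Each limma comparison was repeated with pseudocounts of 0.1 and 1, without a filter, with a filter at 5 TPM, without the intensity trend and with robust shrinkage. It was also repeated after rescaling by median ratios, after quantile normalization, without immunoglobulin and T cell receptor entries, and without each library in turn. The permutation tests of ratios were not repeated. Without either Pax5-/- library, the lone one is assumed to vary like the wild-type libraries. The number of members with an adjusted p below 0.05 (limma) was 4 lower and 1 higher. The lower count was 2 without a filter, where more genes were tested, and 5 where Xrcc4 was added to the others, as with robust shrinkage. Over all genes, 2596 were lower with the main settings, 2382 without a filter and 2614 with robust shrinkage. Leaving out 1 wild-type library at a time gave 2 to 5 lower members and 1 higher member. Over all genes these fits gave 1958 to 3233 lower and 1597 to 1977 higher genes, so that the number of calls changed in general. The calls for Rag2 and Xrcc5 held in all 14 alternatives, that for Lig4 in 12, for Dclre1c in 10 and for Rag1 in 7, and Xrcc4 passed in 5. By the study's thresholds 0 members were called in either direction, 0 to 1 lower when 1 library was left out, and 1 higher and 2 lower with a 2-fold threshold, where 6.45% and 7.71% of all genes that could be called were called. The one lower call was Rag2, without wild-type replicate 1 or Pax5-/- replicate 1.

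With 1 library left out, the log2 fold change of Dntt ranged from -0.40 to 0.35, that of Xrcc6 from -0.13 to 0.11 and that of Mcm4 from -0.098 to 0.16. The direction turned without wild-type replicate 1 for Dntt (-0.40) and Xrcc6 (-0.13), without Pax5-/- replicate 1 for Dntt (-0.08) and Mcm4 (-0.098), without Pax5-/- replicate 2 for Xrcc6 (-0.041) and without wild-type replicate 2 for Mcm4 (-0.0075), none of which had passed the test. The cause was not tested. No paired analysis was possible because replicate numbers are absent from the labels. With TPM alone, depth in reads is unknown, and low genes such as Dclre1c and Xrcc4 carry more counting error than their TPM show.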
